A study of Danio rerio with 12 samples.

Results

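The subunits of TFIIH, the general transcription factor that contains the Ercc2/Xpd helicase, were followed at the RNA level in zebrafish larvae homozygous for a mutation of *ercc2/xpd*. The members were the 10 gene names of the TFIIH subunits (ercc2, ercc3, gtf2h1 to gtf2h5, cdk7, ccnh and mnat1), matched to the symbols of the gene name table without regard to case. Of these names 9 found a gene, out of 37541 gene identifiers in all. The name gtf2h2 found none, and a gene listed as GTF2H2C is given separately and was not counted as a member. RNA was sequenced from pools of whole larvae, aged 5 or 7 days after fertilization (dpf). The groups were homozygous *ercc2/xpd* mutants at 5 dpf, siblings at 5 dpf, mutants at 7 dpf and siblings at 7 dpf, with 3 libraries each and 12 in all. The siblings were wild-type and heterozygous larvae in common pools, and the share of heterozygotes in a pool is not given. All larvae were of the AB strain, and the study's general methods name PTU, a blocker of pigment formation, in the water of the embryos. The mutation is a small frameshifting deletion near the 3′ end of the coding sequence, made with CRISPR/Cas9. Such a deletion leaves nearly all of the counted transcript in place, so the amount of *ercc2/xpd* RNA does not check the genotype labels.

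TFIIH consists of a core and a detachable kinase module, the CDK-activating kinase. In transcription by RNA polymerase II the core opens promoter DNA, chiefly through the translocase ERCC3 (XPB), while CDK7 of the kinase module phosphorylates the tail of the polymerase. In nucleotide excision repair, the pathway that removes bulky lesions such as those made by ultraviolet light, the helicase ERCC2 (XPD) unwinds the damaged strand together with ERCC3. ERCC2 carries an iron-sulfur cluster and also anchors the kinase module to the core. These roles are known mainly from human and yeast proteins.

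Levels are given as FPKM (fragments counted per kilobase of transcript, scaled for library size), which is per length, so that genes of a library can be set side by side. The whole reads behind each value were recovered from the values and came to 13403615 to 15084280 per library. Each comparison was fitted with limma on log2(FPKM + 0.5) over the 23648 genes that reached 0.5 FPKM in 3 or more libraries. A gene was called where its p, adjusted over all those genes by Benjamini and Hochberg, was under 0.05. Fold changes are mutants over siblings on that log2 scale, which understates the change of low genes. Each replicate is a pool, and a p-value here reflects only how far such pools differ among themselves. The libraries of sibling replicate 2 at 5 dpf and mutant replicate 3 at 7 dpf stood farthest from their groups, with fitted weights of 0.458 and 0.537 where 1 is average.

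Of the 9 matched members 6 passed the filter on low values: ERCC2, ERCC3 and GTF2H1 of the core, and all of the kinase module (CDK7, CCNH and MNAT1). The other 3, GTF2H3, GTF2H4 and GTF2H5, had almost no reads under their identifiers in any group and are described at the end. Over both ages ERCC2 was lower in mutants, and the kinase CDK7 and its cyclin CCNH were higher. These 3 calls among 6 tested members stand beside 7.69% of all tested genes called in that comparison. At 5 dpf alone none of the 6 was called, beside 2.82% of all genes, and 5 of them had an unadjusted p under 0.05, beside 14.5%. At 7 dpf alone none was called either, beside 5.05% of all genes, and 4 had an unadjusted p under 0.05, beside 19.6%. The same reads tested with limma's voom gave 0 called members at each age and the same 3 over both ages.

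ERCC2 (ENSDARG00000021985) lies on the minus strand of chromosome 15 from 23680018 to 23692359 in GRCz11, with a counted length of 2581 bp. Its level at 5 dpf was 3.14, 2.97 and 2.56 FPKM in the mutant libraries, against 5.23, 3.78 and 3.80 FPKM in the sibling libraries. The 7 dpf libraries held 3.57, 2.96 and 3.07 FPKM in mutants, against 6.38, 4.26 and 5.06 FPKM in siblings. Every mutant library lay below every sibling library of its age. A separation downward was seen in 10.3% of tested genes at 5 dpf, in 12.9% at 7 dpf and in 3.77% at both ages. The group means were 2.89 ± 0.30 FPKM in mutants and 4.27 ± 0.83 FPKM in siblings at 5 dpf, a ratio of 0.677, and 3.20 ± 0.33 FPKM and 5.23 ± 1.07 FPKM at 7 dpf, a ratio of 0.611 (SD, n = 3 each). The log2 fold change was −0.48 (SE 0.17, limma adjusted p = 0.20) at 5 dpf and −0.62 (SE 0.17, adjusted p = 0.061) at 7 dpf. Over both ages it was −0.55 (95% interval −0.82 to −0.29), with a limma adjusted p of 0.016. In the main fit the lower level was thus called over both ages but at neither age alone. The transcript was present in all 6 mutant libraries, at 108 to 145 reads each. By semi-quantitative RT-PCR at the younger age, the paper describes comparable amounts of this transcript in mutants and siblings. By Western blot at that age it reports a significant reduction of the protein. The lower RNA value here was not called at that age (limma adjusted p = 0.20), so a difference from the RT-PCR is not established. With the fitted library weights the 7 dpf value of ERCC2 passed (−0.61, limma adjusted p = 0.031). With the replicate numbers as a block within each age, the 7 dpf value passed as well (limma adjusted p = 0.044). That block has little basis at 7 dpf, where libraries of equal number correlated at only 0.054, 0.087 and −0.023. With scaling to TPM the change over both ages was −0.39 and with scaling to total reads −0.42, and it was no longer called (limma adjusted p = 0.11 and 0.067). With those scalings the median change of all tested genes over both ages was 0.20 and 0.14, beside 0.02 in the main fit.

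**Figure D1:**
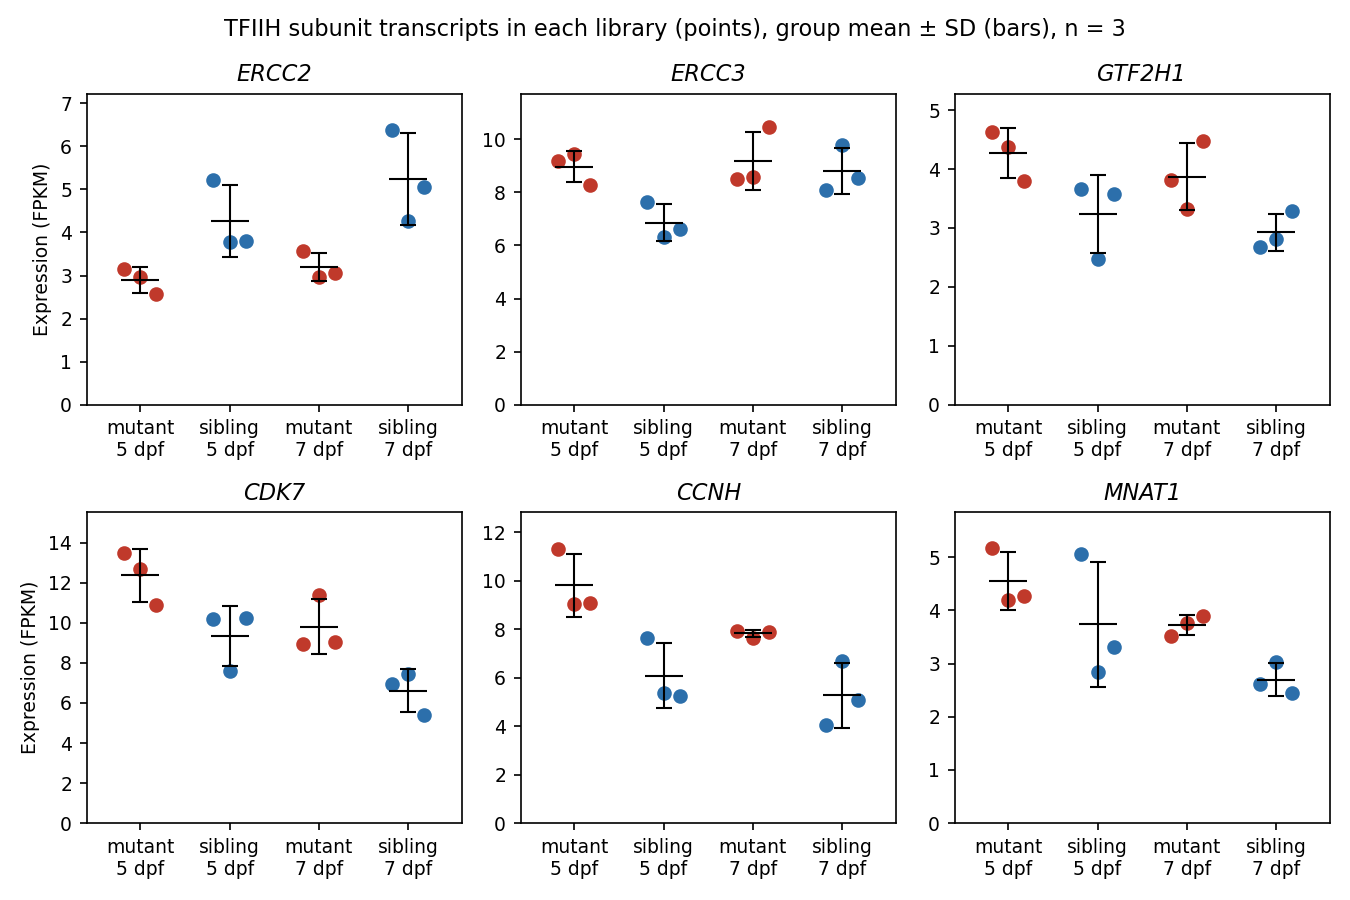
Expression of the 6 tested TFIIH subunits in FPKM (y axis, from 0) in each library (points; mutants red, siblings blue) by genotype and age, with the group mean and SD (black, n = 3). The mutant points of ERCC2 lie at 2.56 to 3.57 FPKM, below the sibling points at 3.78 to 6.38 FPKM, while those of GTF2H1, CDK7 and CCNH lie above the sibling points at each age.

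ERCC3 (chromosome 6, 9595414 to 9630081) is the second ATPase of the core. Its level at 5 dpf was 9.19, 9.43 and 8.29 FPKM in mutants, against 7.64, 6.32 and 6.61 FPKM in siblings, without overlap. A separation upward was seen in 9.31% of tested genes at 5 dpf and in 12.6% at 7 dpf. At 7 dpf it was 8.52, 8.57 and 10.4 FPKM in mutants, against 8.09, 9.79 and 8.53 FPKM in siblings, and the groups overlapped. The log2 fold change was 0.37 (limma adjusted p = 0.21) at 5 dpf, 0.06 (adjusted p = 0.87) at 7 dpf and 0.21 (95% interval 0.01 to 0.42, adjusted p = 0.22) over both ages. The sign at 7 dpf turned when mutant replicate 3 of that age was left out (−0.04), and was also below 0 without sibling replicate 1. With scaling to TPM, ERCC3 was called over both ages (0.42).

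GTF2H1 (p62; chromosome 25, 3196855 to 3217115), a core subunit that docks other repair and transcription factors, had 4.63, 4.37 and 3.80 FPKM in mutants, against 3.66, 2.46 and 3.57 FPKM in siblings, at 5 dpf. At 7 dpf the values were 3.82, 3.32 and 4.47 FPKM in mutants, against 2.68, 2.81 and 3.28 FPKM in siblings. The mutants lay above the siblings at each age, by narrow margins. The log2 fold change was 0.37 at 5 dpf, 0.35 at 7 dpf and 0.36 over both ages (95% interval 0.10 to 0.61), which did not pass (limma adjusted p = 0.34, 0.28 and 0.095). It passed over both ages with scaling to TPM (0.57) and to total reads (0.49).

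Among the kinase module, CDK7 (chromosome 5, 52000163 to 52010213), the catalytic subunit, had 13.5, 12.7 and 10.9 FPKM in mutants, against 10.2, 7.61 and 10.2 FPKM in siblings, at 5 dpf. At 7 dpf it had 8.97, 11.4 and 9.06 FPKM in mutants, against 6.95, 7.46 and 5.39 FPKM in siblings. All mutant libraries lay above the siblings of their age. The log2 fold change was 0.39 (limma adjusted p = 0.30) at 5 dpf, 0.54 (adjusted p = 0.089) at 7 dpf and 0.47 over both ages (95% interval 0.21 to 0.72, adjusted p = 0.032). The last call was lost (adjusted p = 0.053 to 0.084) when 1 of 6 libraries was left out, namely mutant replicate 1 or 2 or sibling replicate 2 at 5 dpf, or mutant replicate 2 or sibling replicate 1 or 3 at 7 dpf.

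CCNH (cyclin H; chromosome 5, 47963940 to 47975440), the regulatory subunit of CDK7, gave the largest log2 change among the 6 at 5 dpf and over both ages. At 5 dpf it had 11.3, 9.06 and 9.09 FPKM in mutants, against 7.65, 5.38 and 5.24 FPKM in siblings. At 7 dpf the mutants were close to each other at 7.93, 7.66 and 7.91 FPKM, against 4.03, 6.70 and 5.09 FPKM in siblings. Again no mutant library overlapped a sibling library. The log2 fold change was 0.66 (limma adjusted p = 0.096) at 5 dpf, 0.55 (adjusted p = 0.12) at 7 dpf and 0.61 over both ages (95% interval 0.32 to 0.89, adjusted p = 0.015). Without sibling replicate 1 at 5 dpf it passed at that age (0.82, adjusted p = 0.048). CCNH overlaps RASA1, a gene on the opposite strand, and since the strand setting of the counting is not given, their reads may not be wholly told apart.

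MNAT1 (MAT1; chromosome 13, 31648271 to 31681951), which assembles CDK7 with cyclin H and binds the module to the core, had 5.18, 4.20 and 4.27 FPKM in mutants, against 5.06, 2.84 and 3.30 FPKM in siblings, at 5 dpf, with overlap. At 7 dpf it had 3.53, 3.75 and 3.89 FPKM in mutants, against 2.63, 3.03 and 2.44 FPKM in siblings, without overlap. The log2 fold change over both ages was 0.34 (95% interval 0.06 to 0.62) and did not pass (limma adjusted p = 0.14). MNAT1 rested on the fewest reads of the tested members, 39 to 100 per library. It was called without sibling replicate 1 at 5 dpf (0.45, adjusted p = 0.026).

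Over both ages CDK7 and CCNH were called higher, where 3.05% of all tested genes were, and ERCC2 was called lower, where 4.63% were. GTF2H1, CDK7 and CCNH were above the siblings without overlap at both ages, which held for 2.44% of tested genes. The median change of the 5 tested members other than ERCC2 was 0.36 over both ages, beside 0.02 over all tested genes. With scaling to TPM or to total reads all 5 were called higher and ERCC2 was not called, so that the split of higher to lower calls was 5 to 0 in place of 2 to 1. Those scalings called 12.1% and 9.41% of all tested genes higher, beside 3.05%. When the 2 libraries of lowest weight were left out, only ERCC2 was still called among the 6.

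**Figure D2:**
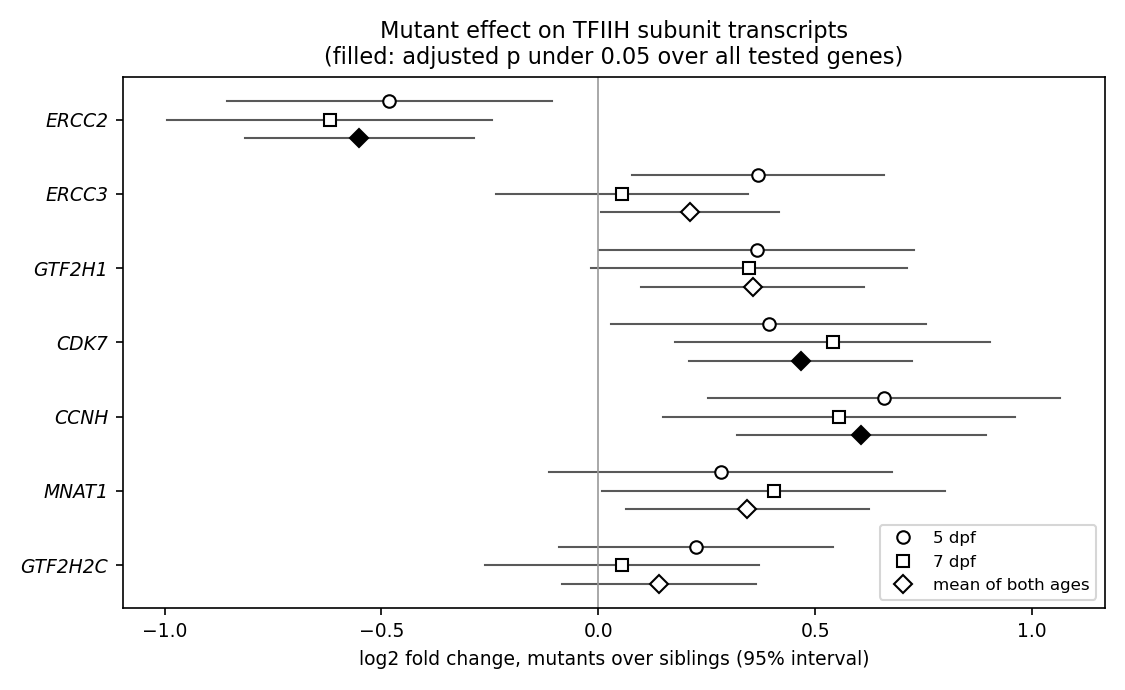
Log2 fold change of mutants over siblings (x axis) with its 95% interval for the 6 tested subunits and GTF2H2C, at 5 dpf (circles), 7 dpf (squares) and over both ages (diamonds). Filled symbols passed the test, which were ERCC2 at −0.55, CDK7 at 0.47 and CCNH at 0.61 over both ages.

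GTF2H2C (ENSDARG00000016514) lies on chromosome 5 from 26221011 to 26233068, and RefSeq's gtf2h2 lies on the same chromosome with the same span of 12058 bp. GTF2H2 (p44) is the core subunit that stimulates the helicase ERCC2 in human cells. GTF2H2C had 5.11, 4.70 and 4.55 FPKM in mutants, against 4.28, 4.32 and 3.50 FPKM in siblings, at 5 dpf, and 3.10, 4.28 and 3.54 FPKM in mutants, against 3.09, 3.62 and 3.69 FPKM in siblings, at 7 dpf. The groups were apart at 5 dpf and overlapped at 7 dpf. The change over both ages was 0.14 (95% interval −0.08 to 0.36, limma adjusted p = 0.48).

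The mutant effect on the members did not pass a test of its difference between the ages. For ERCC2 that difference, the 7 dpf effect minus the 5 dpf effect, was −0.14 (95% interval −0.67 to 0.39, limma adjusted p = 0.88), and for ERCC3 it was −0.31 (95% interval −0.72 to 0.10, adjusted p = 0.59). For the others it lay between −0.10 and 0.15. No gene of the 23648 was called in that test, while 2455 (10.4%) and none of the members had an unadjusted p under 0.05. The intervals of the members hold 0 and are wide, for ERCC2 from −0.67 to 0.39, so a difference between the ages is not excluded.

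With age itself none of the 6 members was called in either genotype, in mutants beside 11.4% and in siblings beside 25.3% of all tested genes. An unadjusted p under 0.05 was found for 2 members in siblings, CDK7 and ERCC3, beside 37.1% of all genes, and for none in mutants, beside 26.1%. CDK7 was 6.60 ± 1.07 FPKM in 7 dpf siblings and 9.35 ± 1.5 FPKM in 5 dpf siblings (SD, n = 3 each), a log2 change of −0.47 (limma adjusted p = 0.057), and the 7 dpf libraries lay below those of 5 dpf, which held for 20.4% of tested genes. Without sibling replicate 2 at 5 dpf it passed, at −0.61 (adjusted p = 0.029). ERCC3 in siblings was 8.80 ± 0.88 FPKM at 7 dpf and 6.86 ± 0.70 FPKM at 5 dpf (0.34, limma adjusted p = 0.084), apart upward as were 20.5% of tested genes. ERCC2 was 5.23 FPKM in 7 dpf siblings and 4.27 FPKM in 5 dpf siblings, with overlap (0.26, adjusted p = 0.29).

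The order of the transcripts differed between the genotypes in the place of ERCC2. In mutants at 5 dpf the order of mean FPKM was CDK7, CCNH, ERCC3, MNAT1, GTF2H1 and ERCC2, in siblings of that age CDK7, ERCC3, CCNH, ERCC2, MNAT1 and GTF2H1. In mutants at 7 dpf it was CDK7, ERCC3, CCNH, GTF2H1, MNAT1 and ERCC2, in siblings ERCC3, CDK7, CCNH, ERCC2, GTF2H1 and MNAT1. CDK7, ERCC3 and CCNH thus formed the upper part in all 4 groups. Neighbours in the order whose libraries did not overlap were ERCC3 and MNAT1, and GTF2H1 and ERCC2, in 5 dpf mutants, and CCNH and ERCC2 in 5 dpf siblings. At 7 dpf they were ERCC3 and CCNH, and CCNH and GTF2H1, in mutants, and ERCC3 and CDK7, and ERCC2 and GTF2H1, in siblings. All other neighbours overlapped. ERCC2 ranked last of the 6 in 5 of 6 mutant libraries and rank 5 in the other, and it held rank 3 or 4 in every sibling library.

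A ratio within a library does not depend on how libraries are scaled. The log2 level of ERCC2 minus the mean log2 level of the other 5 tested members was −1.36, −1.28 and −1.38 in mutants, against −0.30, −0.25 and −0.48 in siblings, at 5 dpf. At 7 dpf it was −0.76, −1.07 and −1.12 in mutants, against 0.55, −0.31 and 0.16 in siblings. The mutants were lower by a log2 difference of means of −0.999 at 5 dpf and −1.12 at 7 dpf, without overlap at either age. This measure joins the lower ERCC2 with the higher levels of the other members, and it is given as a description with no test. By the same measure CCNH lay above the siblings at both ages (0.50 and 0.44), CDK7 and MNAT1 at 7 dpf only, and ERCC3 and GTF2H1 overlapped at both ages. For these members the other 5 include ERCC2, so a lower ERCC2 by itself raises their values in mutants.

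**Figure D3:**
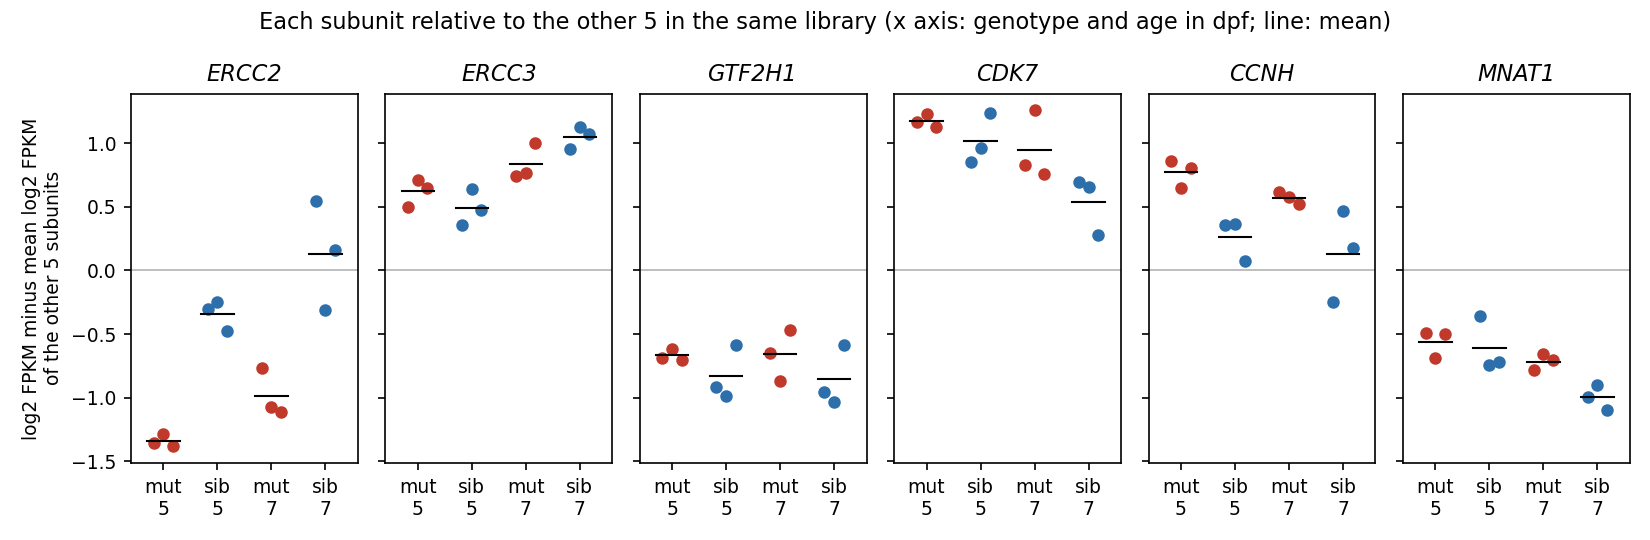
Log2 FPKM of each subunit minus the mean log2 FPKM of the other 5 tested subunits of the same library (y axis), by genotype and age (x axis; mutants red, siblings blue, line at the group mean of 3 libraries). ERCC2 lies at −1.38 to −0.76 in mutants and at −0.48 to 0.55 in siblings.

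The kinase module was also set against the core without ERCC2, as the log2 ratio of the geometric means of their tested members. This ratio was 0.50, 0.29 and 0.42 in mutants, against 0.47, 0.31 and 0.21 in siblings, at 5 dpf. At 7 dpf it was 0.14, 0.37 and −0.06 in mutants, against −0.15, 0.02 and −0.38 in siblings. The genotypes overlapped at each age, and so did the ages within each genotype for the mutants, while the 7 dpf siblings lay below the 5 dpf siblings.

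Since the pools hold whole larvae, fewer cells of a type and less RNA per cell cannot be told apart in these levels. Markers of several organs moved with genotype. Of all tested genes 2.82% were called at 5 dpf and 5.05% at 7 dpf, and 14.5% and 19.6% had an unadjusted p under 0.05. The summed FPKM of 5 exocrine pancreas markers was 79.0 to 335 in mutants and 3406 to 6455 in siblings at 5 dpf, and 131 to 1014 and 10860.2 to 13191 at 7 dpf, with all 5 called lower at each age. Of 9 intestine markers 6 were called lower at each age (29.6 to 84.8 FPKM in mutants, against 242 to 460.4 FPKM in siblings, at 5 dpf, and 41.2 to 58.3 against 372 to 487 at 7 dpf). Of 6 liver markers 2 were called lower at 5 dpf (1492 to 2457 FPKM in mutants, against 2841 to 5925 FPKM in siblings) and 5 at 7 dpf (320.3 to 494 against 2485 to 2996). Of 5 lens markers 5 and 3 were called lower at 5 and 7 dpf (26.9 to 73.0 FPKM in mutants, against 438 to 626 FPKM in siblings, and 20.9 to 116 against 320.1 to 607). The summed muscle markers overlapped between the genotypes at both ages (3525 to 3818 FPKM in mutants, against 2926 to 3662 FPKM in siblings, at 5 dpf), and 1 of the 5, the actin gene ACTA1, was called higher at 7 dpf (1.20). The summed FPKM of 5 brain markers was 42.0 to 49.6 in mutants and 51.3 to 68.6 in siblings at 5 dpf, without overlap, and 54.6 to 78.7 and 61.4 to 75.5 at 7 dpf. None of the brain markers was called at either age, while 3 of the 5 had an unadjusted p under 0.05 at each age. The myelin gene mbpa was called lower over both ages (−0.46). None of these markers was at 0 in any library. Of 3 matched erythrocyte markers, 1 of which was at 0 in some libraries, 2 were tested. Neither was called at either age, with median log2 changes of −0.29 at 5 dpf and −0.36 at 7 dpf. The part of these organs and cells in the TFIIH values was not tested. Of 12 tested markers of dividing cells 3 were called lower in mutants at 5 dpf and none at 7 dpf. An unadjusted p under 0.05 was found for 7 of them at 5 dpf and for 6 at 7 dpf. The summed FPKM of all 13 matched markers, tested or not, was 246 to 321 in mutants and 322 to 398 in siblings at 5 dpf. At 7 dpf it was 88.6 to 98.1 in mutants and 73.9 to 81.5 in siblings. The sum was lower in mutants at 5 dpf and higher at 7 dpf. The log2 changes of CDK7, CCNH and MNAT1 were above 0 at both ages, and the part of dividing cells in them was not tested.

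Genes that work with TFIIH were counted in the same fit, in which 3.05% of all tested genes were called higher and 4.63% lower over both ages. RNA polymerase II is the enzyme that TFIIH acts on, and 6 of its 9 tested subunits were called higher and none lower over both ages, with a median change of 0.45. The catalytic subunit POLR2A changed most, at 41.4 ± 1.2 FPKM in mutants and 19.7 ± 1.3 FPKM in siblings at 5 dpf, and 47.9 ± 2.1 FPKM and 19.7 ± 0.3 FPKM at 7 dpf (SD, n = 3 each). Its log2 change of 1.16 over both ages (limma adjusted p = 2.81e-06) was larger than that of any TFIIH member. The small subunit POLR2K rose by 0.67 (adjusted p = 0.012). Of 17 tested members of the other general initiation factors, which place the polymerase at the promoter, 2 were called higher and none lower, with a median of 0.17. They were the TATA-binding protein TBP (0.40, limma adjusted p = 0.015) and TAF10 (0.39, adjusted p = 0.012), a subunit of TFIID.

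The 20 tested nucleotide excision repair factors outside TFIIH had a median of 0.00 over both ages, and 1 was called, beside 7.69% of all tested genes. It was XAB2, an XPA-binding protein that also takes part in splicing (0.43, limma adjusted p = 0.013). At 7 dpf alone 1 was called, beside 5.05% of all tested genes. It was RPA3, a subunit of the single-strand binding protein RPA, with 6.08 ± 0.33 FPKM in mutants and 3.46 ± 0.59 FPKM in siblings (0.74, limma adjusted p = 0.030, SD, n = 3 each). At 5 dpf the value of RPA3 had the opposite sign (−0.32, adjusted p = 0.44), and the difference between ages was not called (adjusted p = 0.24). RPA2 had −0.50 at 5 dpf and 0.52 at 7 dpf (limma adjusted p = 0.17 and 0.10). For 6 of the 20 factors the difference between ages had an unadjusted p under 0.05, beside 10.4% of all tested genes. The list median over both ages covers such opposite values. The cytosolic iron-sulfur assembly machinery delivers the cluster of ERCC2. Of its 9 tested members 2 were called higher over both ages, beside 3.05% of all tested genes. They were CIAO1 (0.45, limma adjusted p = 0.0096) and NDOR1 (0.52, adjusted p = 0.039), and the list median was 0.12. None of 9 other kinases and cyclins that act on RNA polymerase II was called (median 0.04, 1 with an unadjusted p under 0.05). None of 4 cyclin-dependent kinases that CDK7 activates was called over both ages (median 0.00, and 0 with an unadjusted p under 0.05). That mean covers opposite values for CDK1, the kinase of mitotic entry, whose log2 change was −1.08 at 5 dpf and 1.06 at 7 dpf (limma adjusted p = 0.26 and 0.19, and 0.27 for the difference between ages). Among 14 genes of RNA polymerase I transcription, in which TFIIH has also been implicated, none was called over both ages (median 0.10, 3 with an unadjusted p under 0.05). The median of that list was 0.27 at 5 dpf and −0.08 at 7 dpf. It holds none of the genes counted above as RNA polymerase II subunits, so any subunits common to both enzymes are left out of it. Of all 23648 tested genes 5152 had an unadjusted p under 0.05 over both ages. With scaling to TPM, which moves all genes upward, 6 RNA polymerase II subunits, 6 initiation factors, 2 repair factors, 3 iron-sulfur assembly genes, 2 of the other kinases and cyclins, 0 of the 4 cyclin-dependent kinases and 3 RNA polymerase I genes were called higher and none of these groups' genes lower, beside 12.1% of all tested genes called higher with that scaling. Relative to the median of all genes, the median of the RNA polymerase II subunits was 0.46 with that scaling and 0.43 without it, and that of the repair factors −0.0037 and −0.014.

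**Figure D4:**
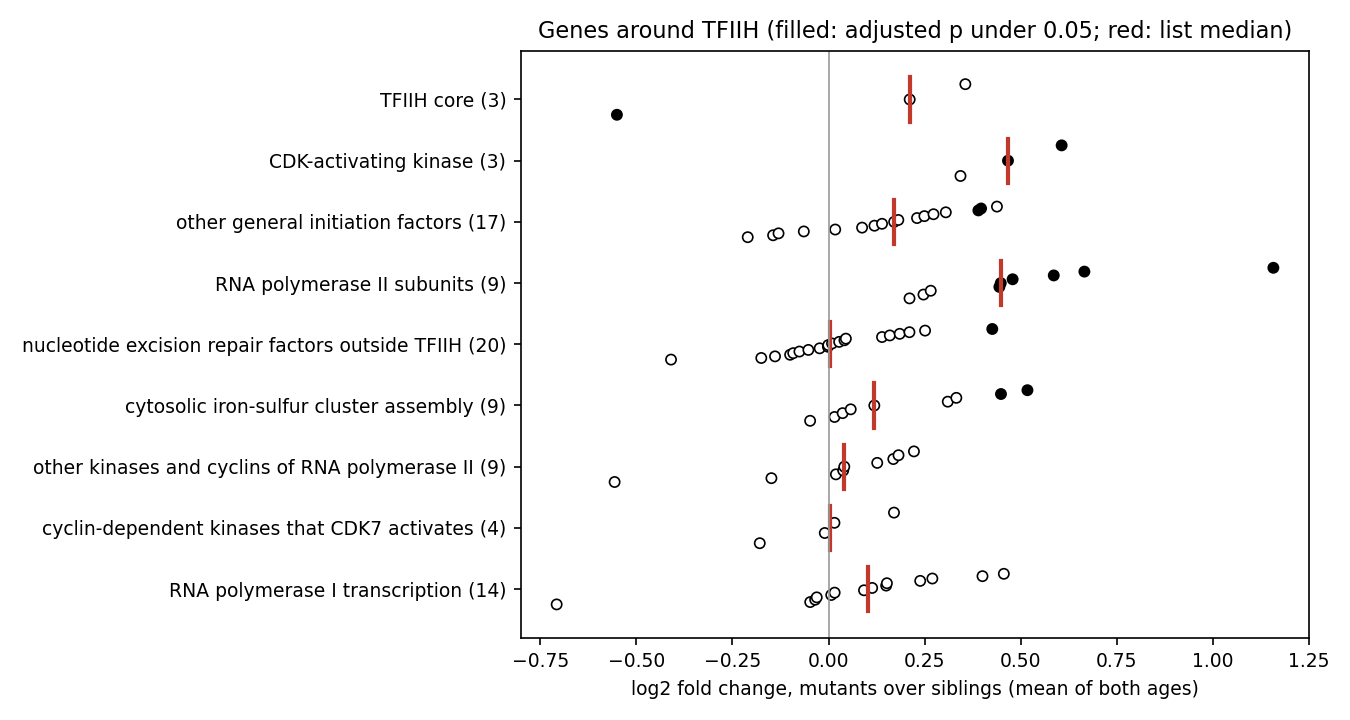
Log2 fold change of mutants over siblings over both ages (x axis) for each tested gene of TFIIH and of the gene groups around it (rows, number of tested genes in brackets). Filled points passed the test and red lines mark the group median, at 0.45 for the RNA polymerase II subunits and 0.00 for the repair factors outside TFIIH.

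The tested genes whose pattern over the 12 libraries was most like that of ERCC2 were sought among 11742 eligible genes by the root mean square difference of centred log2 values. They were clic5b (0.163), NUCB2 (0.167), EPS8L2 (0.173), NGEF (0.174) and map4k6 (0.179). Among the other tested TFIIH members ERCC3 was nearest at 0.43 and CCNH farthest at 0.67. Of all tested genes 34.8% were closer to ERCC2 than ERCC3 was, and 82.1% were closer than CCNH was.

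The surroundings of ERCC2 on chromosome 15 were described because mutants are homozygous for the mutated allele at this locus and siblings carry at least 1 wild-type allele. Within 5 Mb on either side, 34 of 161 tested genes other than ERCC2 were called over both ages (21.1%), 27 of them lower. On the rest of chromosome 15 the share was 11.6%, and on all other chromosomes 7.49%. At 5 dpf the share within 5 Mb was 11.8%, against 2.76% on other chromosomes, and at 7 dpf it was 15.5%, against 4.97%. Chromosome 15 as a whole had 13.8% called over both ages, above the 5.59% to 10.7% of the other 24 chromosomes. Within 1 Mb, 5 of 35 tested genes were called over both ages (14.3%), and their names were taken after their values were seen. PHF12, a PHD finger protein of chromatin complexes, averaged 0.11 ± 0.10 FPKM in mutants and 1.20 ± 0.18 FPKM in siblings at 5 dpf. At 7 dpf it averaged 0.041 ± 0.014 FPKM and 1.26 ± 0.36 FPKM (SD, n = 3 each), and its log2 change over both ages was −1.59. DHRS13 (−1.41) and SMTNL2 (−1.43) were likewise near 0 in mutants. These 3 genes passed the filter on low values only through the siblings, so their calls as lower are not independent of that filter. They are included in the shares within 1 Mb and 5 Mb, and such genes were not counted separately in any region. TMEM97 was lower (−0.48) and zgc:154093 higher (0.50). SAE1, a subunit of the SUMO-activating enzyme, was called at 7 dpf alone (1.18, adjusted p = 0.019). Linked differences between the parental chromosomes and effects of the mutation cannot be told apart for ERCC2 or its neighbours in this design.

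**Figure D5:**
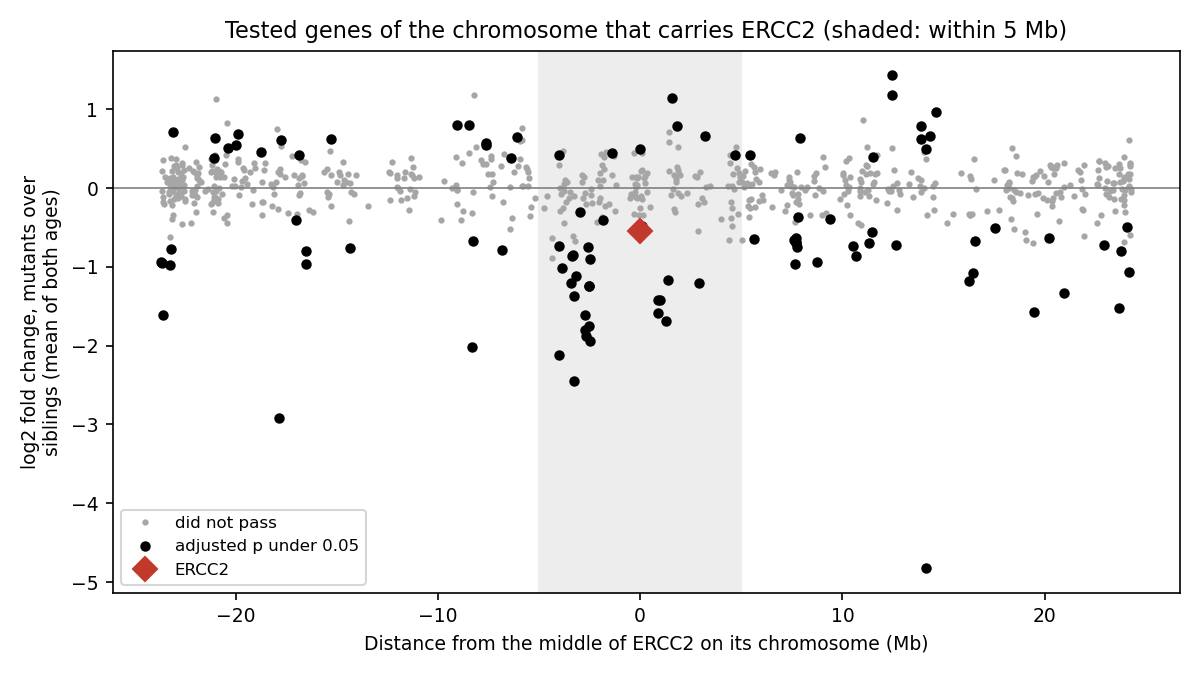
Log2 fold change of mutants over siblings over both ages (y axis) for the tested genes of the chromosome that carries ERCC2, by distance from the middle of ERCC2 in Mb (x axis; shaded within 5 Mb). Black points passed the test, 34 of 161 genes in the shaded part, and ERCC2 (red diamond) lies at −0.55.

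The remaining 3 core subunits could not be compared under their own identifiers. GTF2H3 (p34; chromosome 5, 69650148 to 69660907) and GTF2H5 (TTDA; chromosome 20, 26045253 to 26047787) were listed at 0 in all 12 libraries. GTF2H4 (p52; chromosome 19, 27316467 to 27334394), which binds ERCC3, had 7 reads over all libraries and at most 0.094 FPKM. GTF2H3 lay in a run of 11 consecutive genes with at most 10 reads each over all libraries, 7 of them with 0, between aldh2.2 (6591 reads) and MTRFR (494 reads). GTF2H5 lay in a run of 12 such genes, 11 of them with 0, between zgc:153896 (749 reads) and SYNE1 (2395 reads). GTF2H4 overlaps SH3BP5L on the same strand, which had 1459 reads. Values of 0 are therefore shared with whole stretches of neighbours for GTF2H3 and GTF2H5, and they were not read as absence of the transcripts.

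The files also hold gene models without a symbol on alternate contigs, 2 of them at position numbers that overlap those of GTF2H3 and GTF2H5, which were looked up after the values above were seen. Whether these models stand for the subunits is not annotated, and whether they took up reads of the subunits was not tested. The model at the numbers of GTF2H3 (69650179 to 69660960) had 603 reads over all libraries, with 3.75, 4.02 and 5.32 FPKM in mutants and 2.07, 1.51 and 0.84 FPKM in siblings at 5 dpf. The 7 dpf libraries had 2.29, 1.04 and 2.04 FPKM in mutants and 5.29, 2.52 and 2.68 FPKM in siblings. The genotypes thus did not overlap at either age, with mutants above siblings at 5 dpf (log2 change 1.34, limma adjusted p = 0.041) and below them at 7 dpf (−0.78, adjusted p = 0.19). The call at 5 dpf was lost without any 1 of 6 of the 12 libraries (adjusted p of 0.025 to 0.14 with 1 library left out), and the difference between ages was not called (adjusted p = 0.18). The model at the numbers of GTF2H5 (26045253 to 26047788) had 549 reads, with 4.75, 4.64 and 3.82 FPKM in mutants and 4.63, 3.72 and 2.80 FPKM in siblings at 5 dpf. The 7 dpf libraries had 5.77, 1.83 and 2.04 FPKM in mutants and 2.94, 5.12 and 2.73 FPKM in siblings. Its genotypes overlapped at both ages, and its log2 changes of 0.24 and −0.25 were not called (limma adjusted p = 0.81 and 0.75).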

How the data were processed

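RNA-seq values of 12 pools of whole larvae were used. The authors mapped reads to GRCz11 and converted normalized mapped reads to FPKM, and each gene has 1 deposited FPKM per library. HISAT2 2.0.5 is named in the submitters' processing notes. Counter, strand setting and annotation release: not given in the sources used here. Whole reads were recovered from the steps between low FPKM values (100% whole within 0.01 of a read, among values under 10000 reads), and the deposited scaling equalled a median of ratios. No columns belonged to other samples.

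Genes with at least 0.5 FPKM in 3 of 12 libraries were kept, and limma 3.58.1 in R 4.3.3 fitted log2(FPKM + 0.5) to the 4 groups with 8 residual degrees of freedom. Python 3.11.15 did the rest. The fit was also run on simulated data as a check of the code, and no result here rests on that run. The smallest p of an exact permutation test of 3 against 3 libraries is 0.1, so single values were not tested that way.

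Alternatives were pseudocounts of 0.1 and 1, no filter, a stricter one of 1 FPKM, scaling to TPM or by median of ratios, a fit of only the groups compared, replicate blocks, library weights, voom on the recovered reads and leaving out each library. Scaling to total reads and leaving out the 2 libraries of lowest weight were chosen after seeing the data. Members and lists were chosen with earlier results of these data known. Named genes were all members, the 5 genes most like ERCC2 (mean of at least 1 FPKM, SD at least 0.5 times that of ERCC2) and, per list and comparison, at most 2 called genes, those that changed most.

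Mutant and sibling libraries of equal replicate number had deviations from their group means that correlated at 0.272, 0.129 and 0.217 at 5 dpf (other numbers −0.19 to −0.03). These numbers were therefore used as blocks in alternative fits, while the main fit had no block. At 7 dpf libraries of equal number correlated at 0.054, 0.087 and −0.023 (other numbers −0.13 to 0.06). Deviations from a group mean cancel out within the group, so positive values for equal numbers draw those for other numbers downward. The values for other numbers are therefore no separate evidence, and nothing but these correlations gives the pairing.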

Additional observations from a re-analysis of the deposited data

How the results depend on the processing

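ERCC2's mutant effect kept its direction and its side of the threshold in 66 of 71 alternative values, and the other values of single members in 739 of 781. For ERCC2 at 5 dpf this means that it stayed uncalled in every alternative, and at 7 dpf in all but 3. Over both ages ERCC2 stayed called except with TPM and total reads. Called members over both ages numbered 3, and 2 to 4 with 1 library left out. They numbered 5 with TPM and 5 with total reads (ERCC2 at −0.39 and −0.42, not called), where 15.2% and 12.9% of all tested genes were called against 7.69%, and 12.1% and 9.41% called higher against 3.05%, and 1 without the 2 libraries of lowest weight. At 5 dpf 0 were called, and 0 to 1 with 1 library left out. At 7 dpf 0 were called, 1 with TPM, 1 with total reads and 2 with library weights (ERCC2 at −0.61). For siblings at 7 against 5 dpf 0 were called, 0 to 1 with 1 library left out, and 1 each with total reads, library weights and without the 2 libraries of lowest weight. The causes were not tested.

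With a replicate block within each age 1 member was called at 7 dpf, and 1 with a block over both ages, in each case ERCC2 (−0.62, limma adjusted p = 0.044 and 0.027). The blocks changed no other call of a member. At 7 dpf the same-numbered libraries share only a number.

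Values near 0 turned sign. The difference of the mutant effect between ages was 0.033 for GTF2H1 with total reads and 0.043 without the 2 libraries of lowest weight. With 1 library left out it was −0.28 to 0.0019 for ERCC2, −0.11 to 0.14 for GTF2H1, −0.27 to 0.068 for CCNH and −0.091 to 0.28 for MNAT1. ERCC3 at 7 dpf became −0.021 with library weights, −0.037 without the 2 libraries of lowest weight and −0.037 to 0.13 with 1 library left out. ERCC3 in mutants at 7 against 5 dpf became −0.00203 with TPM, −0.0417 with total reads, −0.0385 with library weights, −0.0649 without the 2 libraries of lowest weight and −0.0649 to 0.0745 with 1 library left out. Depth limits the members with few reads. The mean counting error of a library was 15.2% for MNAT1 in 7 dpf siblings and 7.62% to 9.15% for ERCC2.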
